A study of Mus musculus with 9 samples.

Results

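The genes described here are 9 members of the Hedgehog signalling pathway, *Boc*, *Cdon*, *Gas1*, *Ptch1*, *Smo*, *Sufu*, *Gli1*, *Gli2* and *Gli3*. They were chosen by name with earlier results of these data known. Counts of members set beside the share of all genes are therefore a description and not a test. All 9 were found among the 14670 genes listed for mouse embryonic cortex. RNA was sequenced from cerebral cortex of control, *Fzd3* mutant and *Celsr3* mutant embryos at embryonic day (E) 16.5, with 3 libraries for each genotype. *Fzd3* encodes a Frizzled receptor and *Celsr3* an atypical cadherin, both of the planar cell polarity group, and the question was which transcripts differ when either gene is lost. The mutants carried the genotypes Fzd3 -/- and Celsr3 -/-, and the controls were labelled wild type (+/+), whereas the methods describe control animals as littermates that could be heterozygous or wild type. The mice were on a mixed C57Bl/6 and CD1 background. The methods name cortical tissue from 3 of each genotype and do not give litters, so the p-values below measure the spread between libraries, part of which may be technical.

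Hedgehog ligands bind the receptor Patched, which then no longer holds back the membrane protein Smoothened. In the primary cilium the active signal stops the processing of Gli transcription factors into repressors and releases them from Sufu, and *Gli1* and *Ptch1* are themselves classical transcriptional targets of the pathway. In the embryonic forebrain the pathway patterns ventral territories and acts on progenitors of the dorsal wall, where Gli3 works largely as a repressor.

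Values are CPM as deposited, that is, reads of a gene scaled by the size of its library, with library totals between 990141 and 1012199 CPM. The depth of each library was estimated from the spacing of its values, taking the smallest step as 1 read. In each of the 9 libraries 100% of values lay on this grid of steps, to within 0.1 of a step. Too few low values were present, however, to establish that the step is 1 read. With the step taken as 1 read, the control libraries 1, 2 and 3 had an estimated 52266343, 61637621 and 39857305 reads on the listed genes. For *Fzd3* mutant libraries 1, 2 and 3 the numbers were 42963627, 45848829 and 52249430, and the *Celsr3* mutant libraries 1, 2 and 4 had 60333846, 54974978 and 69600589. In these libraries 3 reads correspond to between 0.0427 and 0.0752 CPM, a limit that covers counting error only. By the same estimate *Gli1*, the member with the lowest level, had 106 to 195 reads in each library. Differences are log2 fold changes of CPM + 0.5 from limma, fitted to all 14670 genes in all 9 libraries, with Benjamini-Hochberg adjustment over all genes and a threshold of 0.05. The pseudocount of 0.5 CPM makes these fold changes slightly smaller for genes of low level.

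The labels were checked against the targeted genes. *Celsr3* measured 196, 243 and 214 CPM in the control libraries and 122, 139 and 118 CPM in those of the *Celsr3* mutants. The groups did not overlap, and *Celsr3* fell by 0.78 on the log2 scale in the *Celsr3* mutants (SE 0.091, limma adjusted p = 0.0018). That call did not hold in every alternative, and was lost without sharing of variances between genes, at the same difference of -0.78 (adjusted p = 0.177). *Fzd3* was at 58.0, 67.7 and 46.9 CPM in controls and at 46.5, 39.8 and 59.6 CPM in *Fzd3* mutants, with overlapping groups and a difference of -0.24 (95% interval -0.57 to 0.08, adjusted p = 0.24). Without *Fzd3* mutant library 3 the difference was -0.40 and past the threshold, with an adjusted p of 0.0457. The mutant *Fzd3* allele lacks exon 3 according to the methods. A value for the whole gene also counts reads from the exons that remain, so the *Fzd3* level does not check the label, and these mutants are named after their labels.

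One library stood apart from the others of its group. *Celsr3* mutant library 4 held *Col1a2* at 49.4 CPM, *Col1a1* at 21.5 CPM and *Dcn* at 13.0 CPM, all genes of meningeal and other connective tissue cells, against 3.49, 1.39 and 1.72 CPM in library 1 and 2.25, 4.32 and 2.07 CPM in library 2. Tests of the Hedgehog and marker genes in *Celsr3* mutants against controls were therefore also made without library 4. The cortical identity of the tissue was visible in all 9 libraries, with *Neurod6* and *Tbr1* among the 9 listed markers of cortical excitatory neurons, whereas 0 of 5 choroid plexus markers were listed. *Neurod6* ran from 758 to 947 CPM over the libraries and *Tbr1* from 277 to 351 CPM.

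In *Fzd3* mutants 7 of the 9 Hedgehog genes fell and 0 rose, and the median difference of the 9 was -0.64 on the log2 scale against -0.001 for all genes. Of all genes tested, 29.8% passed the threshold in this comparison, and 14.8% were lower. All members except *Gli1* had the 3 *Fzd3* mutant libraries below the 3 controls, 8 of 9, beside 22.2% of all genes with that arrangement and 43.8% without overlap in either direction. In *Celsr3* mutants 0 of 9 passed the threshold by limma, and 0 of 9 had an unadjusted p under 0.05, where 45 of 14670 genes (0.307%) passed it and 800 had an unadjusted p under 0.05. The groups overlapped for all 9 members in that comparison, beside 10.4% of all genes without overlap, and the median of the members was -0.07. Both mutants were compared with the same 3 controls, so the results of those 2 comparisons are not independent of each other.

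**Figure D1:**
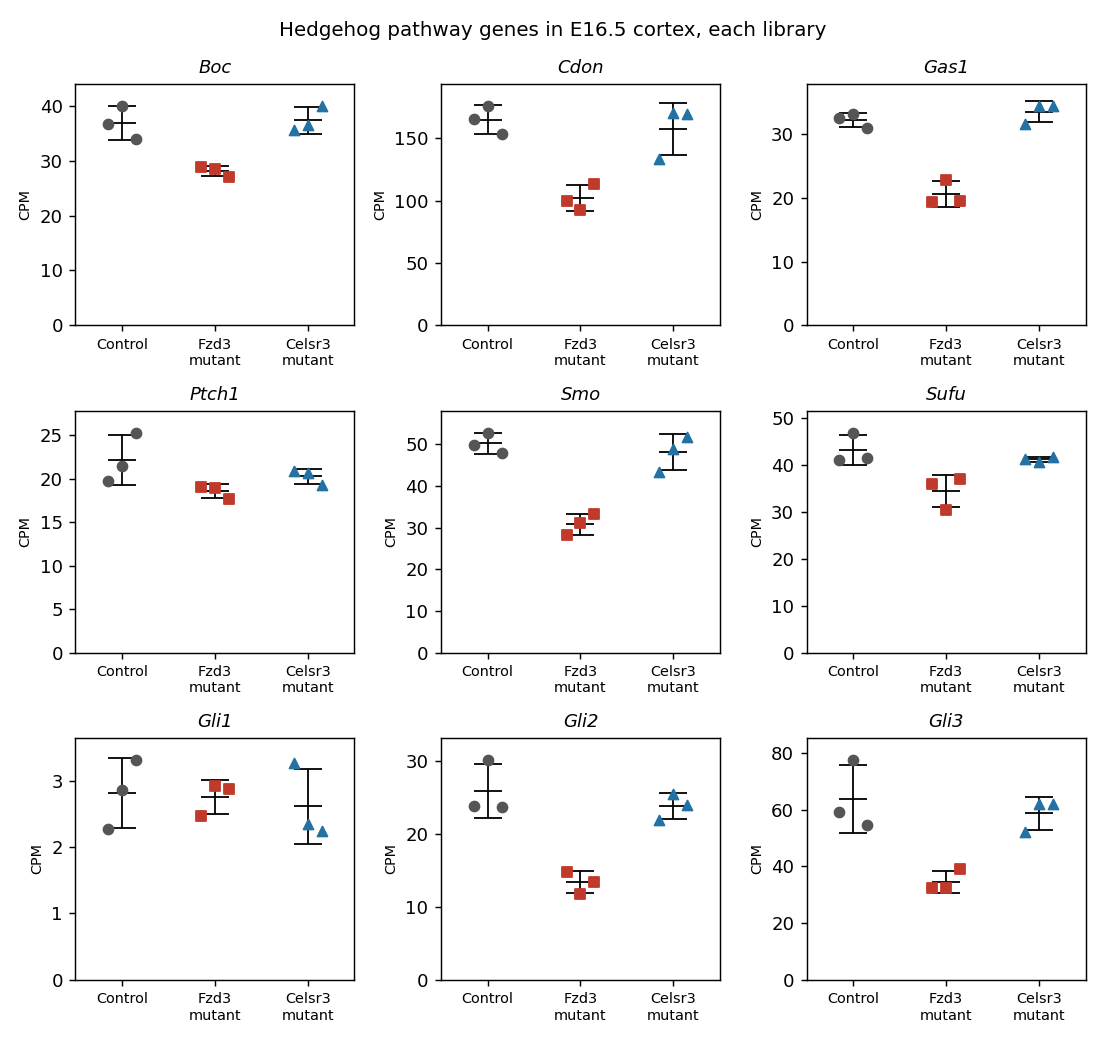
CPM of each Hedgehog gene (vertical axes, starting at 0) in the 3 libraries of each genotype, with the mean and SD as a black bar. The *Fzd3* mutant libraries lie below all controls for every gene but *Gli1*, for which the 3 genotypes overlap.

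The surface proteins that bind Hedgehog ligands together with Patched come first. *Cdon*, an immunoglobulin superfamily co-receptor, had 165, 176 and 153 CPM in controls, 100, 92.7 and 113 CPM in *Fzd3* mutants and 133, 170 and 169 CPM in *Celsr3* mutants. The *Fzd3* mutant libraries were all below every library of the other genotypes. *Cdon* fell by 0.69 in *Fzd3* mutants (SE 0.0984, 95% interval -0.91 to -0.47, limma adjusted p = 0.000531). Its relative *Boc* had 36.7, 40 and 33.9 CPM in controls, 28.8, 28.4 and 27.0 CPM in *Fzd3* mutants and 35.5, 36.4 and 40 CPM in *Celsr3* mutants. Here too the *Fzd3* mutants stood below all other libraries, with a smaller distance. *Boc* fell by 0.39 (SE 0.0706, 95% interval -0.54 to -0.23, limma adjusted p = 0.00227).

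*Gas1*, a membrane-anchored co-receptor unrelated to Cdon and Boc, had 32.6, 33.2 and 31.0 CPM in controls, 19.3, 22.9 and 19.6 CPM in *Fzd3* mutants and 31.6, 34.5 and 34.5 CPM in *Celsr3* mutants. The libraries of controls and *Celsr3* mutants were interspersed, and those of the *Fzd3* mutants lay apart from both. *Gas1* fell by 0.64 (SE 0.0739, 95% interval -0.80 to -0.48, limma adjusted p = 0.000149). An antisense transcript, *Gm48488*, covers 19.9% of the *Gas1* exon bases, and the use of strand in the authors' counting is not given in the sources used here, so reads from either strand cannot be told apart.

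The receptor gene *Ptch1* had 19.7, 21.5 and 25.3 CPM in controls, 19.1, 19.0 and 17.7 CPM in *Fzd3* mutants and 20.9, 20.7 and 19.3 CPM in *Celsr3* mutants. The *Fzd3* mutants were the lowest libraries, but the gap to control library 1 was small. The difference from controls was -0.24 (SE 0.0876, 95% interval -0.43 to -0.05) and missed the threshold, with a limma adjusted p of 0.0606. The call rested on control library 1, and without it the difference was -0.32 with an adjusted p of 0.0256. Against *Celsr3* mutants the difference of *Ptch1* was -0.12 (95% interval -0.31 to 0.07, adjusted p = 0.329).

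*Smo* encodes Smoothened, the transducer that Patched holds back. It had 49.9, 52.8 and 48.0 CPM in controls, 28.2, 31.2 and 33.2 CPM in *Fzd3* mutants and 43.5, 49.0 and 51.9 CPM in *Celsr3* mutants. No *Fzd3* mutant library came near those of the other genotypes. *Smo* fell by 0.70 (SE 0.077, 95% interval -0.87 to -0.53, limma adjusted p = 0.000123), with a change of the mean CPM of -38.6%. *Sufu*, the cytoplasmic protein that binds Gli factors and restrains them, had 41.2, 46.9 and 41.6 CPM in controls, 35.9, 30.5 and 37.0 CPM in *Fzd3* mutants and 41.4, 40.7 and 41.7 CPM in *Celsr3* mutants. The *Fzd3* mutants were again the 3 lowest libraries. *Sufu* fell by 0.33 (SE 0.0762, 95% interval -0.49 to -0.16, limma adjusted p = 0.00859).

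The Gli transcription factors did not share one pattern. *Gli2*, the main activator, had 23.8, 30.1 and 23.7 CPM in controls, 14.8, 11.8 and 13.4 CPM in *Fzd3* mutants and 21.9, 25.4 and 24.0 CPM in *Celsr3* mutants. *Gli3*, the main repressor, had 59.2, 77.5 and 54.6 CPM in controls, 32.2, 32.5 and 39.0 CPM in *Fzd3* mutants and 52.0, 62.1 and 62.1 CPM in *Celsr3* mutants. An antisense gene, *Gm6556*, overlaps 1.96% of the *Gli3* exon bases. For both genes the *Fzd3* mutants were clear of every other library, and control library 2 was the highest of all. *Gli2* fell by 0.93 (SE 0.109, 95% interval -1.17 to -0.69, limma adjusted p = 0.000163), with a change of the mean CPM of -48.5%. *Gli3* fell by 0.86 (SE 0.124, 95% interval -1.14 to -0.59, limma adjusted p = 0.000541).

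*Gli1*, an activator whose transcription is commonly read as a measure of Hedgehog signalling, had 2.27, 2.86 and 3.31 CPM in controls, 2.46, 2.92 and 2.88 CPM in *Fzd3* mutants and 3.26, 2.34 and 2.24 CPM in *Celsr3* mutants. The 3 genotypes were interspersed. The difference between *Fzd3* mutants and controls was -0.02 (SE 0.164, limma adjusted p = 0.949), and its 95% interval of -0.38 to 0.34 holds changes in either direction, so that a change within these bounds was not detectable with these libraries. Antisense genes overlap 5.31% of the *Gli1* exon bases (*Gm47200*) and 1.24% (*Arhgap9*).

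**Figure D2:**
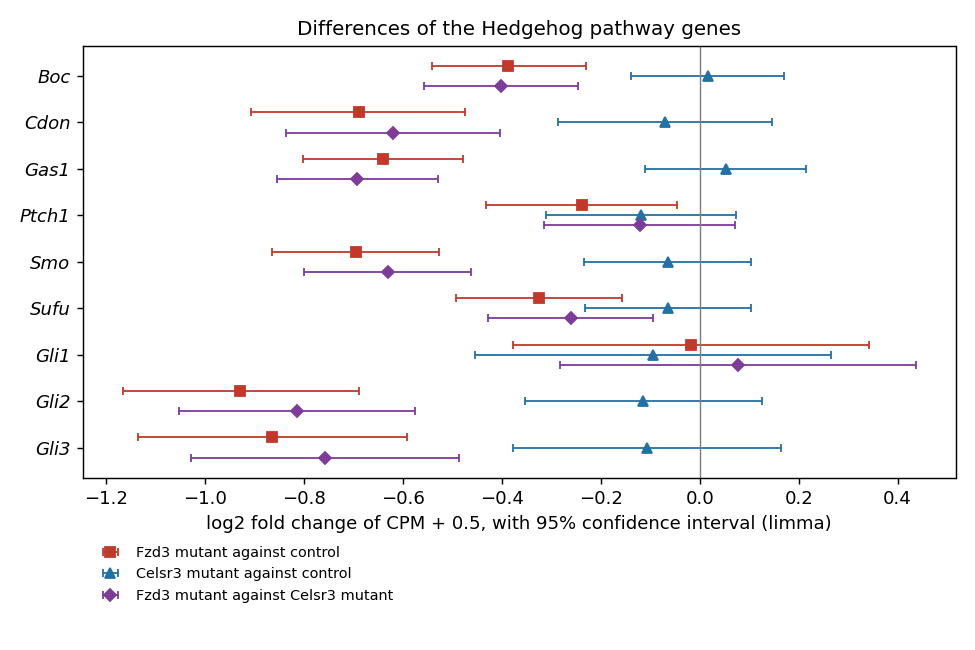
Log2 fold change of each Hedgehog gene (horizontal axis) with its 95% confidence interval from limma, in 3 comparisons shown by colour and symbol. The *Fzd3* mutant intervals of 8 genes lie below 0 against controls and those of 7 genes against *Celsr3* mutants, and all 9 intervals of *Celsr3* mutants against controls hold 0.

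With 3 libraries against 3, the smallest p that a two-sided exact permutation test can give is 0.1. That value was reached by the 8 members other than *Gli1* for *Fzd3* mutants against controls, whereas *Gli1* gave an exact permutation p of 1. The 7 members that fell passed the threshold in all 21 alternatives of the processing. Their adjusted p was highest for *Sufu*, at up to 0.0431, with a log2 fold change between -0.38 and -0.24, and at most 0.0183 for the other 6.

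In *Celsr3* mutants the differences from controls ranged from -0.12 for *Ptch1* to 0.05 for *Gas1*. The 95% interval was -0.35 to 0.13 for *Gli2*, -0.38 to 0.17 for *Gli3*, -0.23 to 0.10 for *Smo* and -0.29 to 0.15 for *Cdon*, and the limma adjusted p was 1.00 for all 9 members after rounding. Without library 4 the differences of these genes were -0.12, -0.15, -0.12 and -0.13, and again 0 of 9 passed. The mutants were also compared directly, which tests whether the effects differ. Against *Celsr3* mutants, 7 of 9 members were lower in *Fzd3* mutants, the same 7 genes, with a median of -0.62. Of all genes, 29.6% passed the threshold in this comparison and 14.3% were lower, while 8 of 9 members had all *Fzd3* mutant libraries below all *Celsr3* mutant libraries, beside 22.6% of all genes in that arrangement and 44.9% in either direction. *Gli2* differed by -0.81 (SE 0.109, limma adjusted p = 0.000411), *Gli3* by -0.76 (SE 0.124, adjusted p = 0.00133), *Smo* by -0.63 (SE 0.077, adjusted p = 0.000257) and *Gas1* by -0.69 (SE 0.0739, adjusted p = 0.000119). *Sufu* differed by -0.26 (limma adjusted p = 0.0245), and this call was lost without *Fzd3* mutant library 2 (adjusted p = 0.0886) and without *Celsr3* mutant library 1, 2 or 4 (adjusted p = 0.0566, 0.0557 and 0.0673). It was also lost without sharing of variances (0.0772) and with a block for the replicate number (0.123). Without library 4 the direct difference was -0.81 for *Gli2* and -0.58 for *Smo*, and 6 of 9 members passed.

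Ratios of members within a library were chosen after their values had been seen, so they restate those values and are given as a description. *Gli2* over *Gli1* was 10.5, 10.5 and 7.15 in controls and 6, 4.04 and 4.64 in *Fzd3* mutants, with no overlap, and 6.71, 10.9 and 10.7 in *Celsr3* mutants. *Smo* over *Ptch1* was 2.53, 2.46 and 1.90 in controls and 1.48, 1.64 and 1.87 in *Fzd3* mutants, whereas *Gli2* over *Gli3* ran from 0.388 to 0.434 in controls and from 0.343 to 0.459 in *Fzd3* mutants.

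Levels can be compared between genes only per length of transcript. In controls, CPM per kb of annotated exon was highest for *Cdon* at 21.3 ± 1.55 (SD, n = 3), followed by *Gas1* at 10.9 ± 0.381, *Smo* at 8.94 ± 0.434 and *Boc* at 8.29 ± 0.686. *Gli3* (6.65 ± 1.26) and *Sufu* (5.62 ± 0.415) came next, and *Gli2* (3.76 ± 0.532), *Ptch1* (1.56 ± 0.201) and *Gli1* (0.563 ± 0.104) closed the order. *Smo* and *Boc*, *Boc* and *Gli3*, and *Gli3* and *Sufu* overlapped in their control libraries, so these neighbours do not differ beyond their spread. The other neighbours did not overlap in any control library. With the longest transcript as the length, 4 of 9 ranks were as before, those of *Cdon* at the top and *Gli2*, *Ptch1* and *Gli1* at the bottom, while *Gas1*, *Smo*, *Boc*, *Gli3* and *Sufu* changed places.

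**Figure D3:**
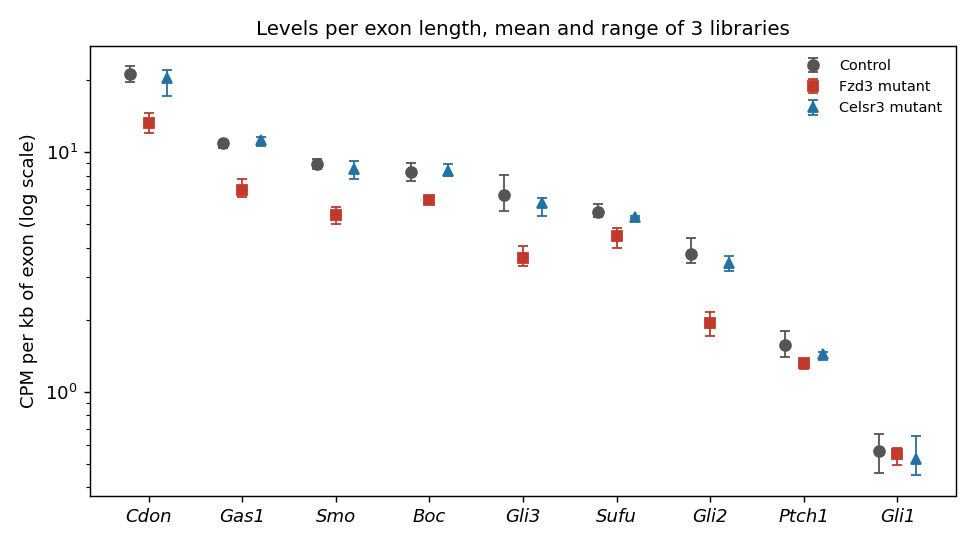
CPM per kb of exon (vertical axis, log scale) for each Hedgehog gene, ordered by the control mean, with the mean as a symbol and the range of 3 libraries as a bar. The order of the genes runs from *Cdon* (21.3 in controls) down to *Gli1* (0.563 in controls).

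The members lie on 7 chromosomes of GRCm38. *Gli2* (listed as XLOC_001493) occupies chr1:118834132-119053619 on the minus strand, *Smo* (XLOC_026252) chr6:29735503-29761365 on the plus strand, and *Gli3* (XLOC_007671) chr13:15463235-15730026 on the plus strand. *Gas1* (XLOC_008720, chr13:60174405-60177365) and *Ptch1* (XLOC_008756, chr13:63508328-63573598) lie on the minus strand of the same chromosome as *Gli3*. *Cdon* (XLOC_032974) occupies chr9:35421128-35507652 and *Sufu* (XLOC_015693) chr19:46396896-46488804, both on the plus strand. *Boc* (XLOC_012660, chr16:44485049-44558897) and *Gli1* (XLOC_003391, chr10:127329882-127341974) are on the minus strand. For 7 of the 9 members the RefSeq promoter table for GRCm38.p6 holds 250 bases before the start and 50 after it. The windows of *Cdon*, *Gli3* and *Ptch1* lie inside the gene spans given above, so they do not cover the outermost annotated start. The sequence GACCACCCA, the consensus bound by Gli proteins, was searched on both strands in these 300 bases. It was found in 0 of 7 members and in 0 of 59 windows of the further Hedgehog genes, beside 83 of 32851 windows (0.253%) over all genes, which says only that these letters are not in these windows.

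The 250 bases before the start are printed 5′ to 3′ for *Gli2* and *Smo*, the members with the strongest fall and the lowest adjusted p in *Fzd3* mutants, and for *Ptch1*, which did not pass the threshold. They lie at chr1:119053620-119053869 (minus strand), chr6:29735247-29735496 (plus strand) and chr13:63565736-63565985 (minus strand), upstream of the RefSeq start. The *Ptch1* window lies inside the annotated span of that gene, downstream of its outermost start. Capitals mark the GC box GGGCGG or its reverse complement CCGCCC, a motif chosen with the results known and present in 32.7% of all such windows of 250 bases.
Gli2: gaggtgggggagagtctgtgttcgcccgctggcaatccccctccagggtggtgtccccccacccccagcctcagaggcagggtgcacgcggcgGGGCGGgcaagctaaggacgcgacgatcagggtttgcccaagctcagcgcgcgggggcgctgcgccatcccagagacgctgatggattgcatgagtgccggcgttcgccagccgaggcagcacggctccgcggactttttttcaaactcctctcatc
Smo: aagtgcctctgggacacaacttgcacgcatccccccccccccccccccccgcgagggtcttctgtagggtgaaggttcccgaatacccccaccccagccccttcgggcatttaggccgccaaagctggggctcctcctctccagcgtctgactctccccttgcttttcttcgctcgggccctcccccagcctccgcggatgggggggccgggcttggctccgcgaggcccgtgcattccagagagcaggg
Ptch1: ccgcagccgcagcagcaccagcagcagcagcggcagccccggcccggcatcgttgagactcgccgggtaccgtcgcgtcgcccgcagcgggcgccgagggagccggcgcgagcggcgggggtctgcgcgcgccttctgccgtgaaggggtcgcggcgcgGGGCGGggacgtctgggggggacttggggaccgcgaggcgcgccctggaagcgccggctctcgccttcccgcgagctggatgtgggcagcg
The GC box occurs in 5 of 7 members and in 39 of 59 windows of the further Hedgehog genes. *Gli2* and *Ptch1* each hold 1, and *Smo* 0. The share of G and C was 67.2% for *Gli2*, 68.4% for *Smo* and 78.4% for *Ptch1*, against a median of 52.4% over all windows. A match is a description of letters and not evidence of binding.

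Of 58 further Hedgehog genes listed by role, 49 were found in the table. In *Fzd3* mutants 8 of these 49 fell and 5 rose against controls, with a median of -0.006, and 36 did not pass. The share of all genes that passed was 29.8%, with a median of -0.001. In *Celsr3* mutants 0 of 49 passed by limma with or without library 4, in an analysis with 45 calls over all genes. The ligand genes *Shh*, *Ihh* and *Dhh* and the target and inhibitor *Hhip* were not among the listed genes and were not analysed here.

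Genes for release of the ligand went in both directions. *Scube1*, a secreted carrier of ligand, rose by 0.45 (SE 0.0942, limma adjusted p = 0.00461), with 114, 104 and 105 CPM in controls and 156, 140 and 146 CPM in *Fzd3* mutants. *Disp2* rose by 0.32 (SE 0.0572, adjusted p = 0.00212), whereas *Disp1*, which exports the lipid-modified ligand, fell by 0.39 (SE 0.0847, adjusted p = 0.0057). *Disp1* had 9.17, 10.1 and 9.03 CPM in controls and 7.08, 7.02 and 7.06 CPM in *Fzd3* mutants. Of the surface proteins beyond the members, 2 of 7 fell, *Gpc4* and *Gpc6*, which encode glypicans, heparan sulfate carriers. The other listed glypican gene, *Gpc3*, did not pass (-0.32, adjusted p = 0.484), and its groups overlapped. *Gpc4* fell by 0.67 (SE 0.118, limma adjusted p = 0.00181) and *Gpc6* by 0.64 (SE 0.0803, adjusted p = 0.000245).

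In the relay at the cilium 4 of 16 genes passed. *Evc* and *Evc2*, which bind Smoothened at the base of the cilium, fell by 0.38 and 0.40 (SE 0.114 and 0.128, limma adjusted p = 0.0281 and 0.0358). *Arrb1*, a beta-arrestin, rose by 0.31 (SE 0.0674, adjusted p = 0.00614), and *Kif3a*, a motor subunit needed to build cilia, rose by 0.15 (SE 0.0422, adjusted p = 0.0198). Of 16 genes for processing and control of Gli, *Prkacb*, a catalytic subunit of the kinase that marks Gli proteins for processing, rose by 0.25 (SE 0.0523, adjusted p = 0.00524), and *Cul1*, a ubiquitin ligase scaffold, fell by 0.16 (SE 0.0493, adjusted p = 0.035). Among 5 listed targets beyond the members, *Ccnd1*, which encodes cyclin D1, fell by 0.87 (SE 0.113, adjusted p = 0.00032), from 38.0, 43.5 and 47.0 CPM in controls to 24.2, 21.4 and 24.1 CPM. *Ccnd2* fell by 0.38 (SE 0.112, adjusted p = 0.0251), and *Mycn*, a further target, was at 94.7 ± 3.58 CPM (SD, n = 3) in controls and 88.2 ± 3.4 CPM in *Fzd3* mutants, a difference of -0.10 (95% interval -0.20 to -0.001, adjusted p = 0.116).

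**Figure D4:**
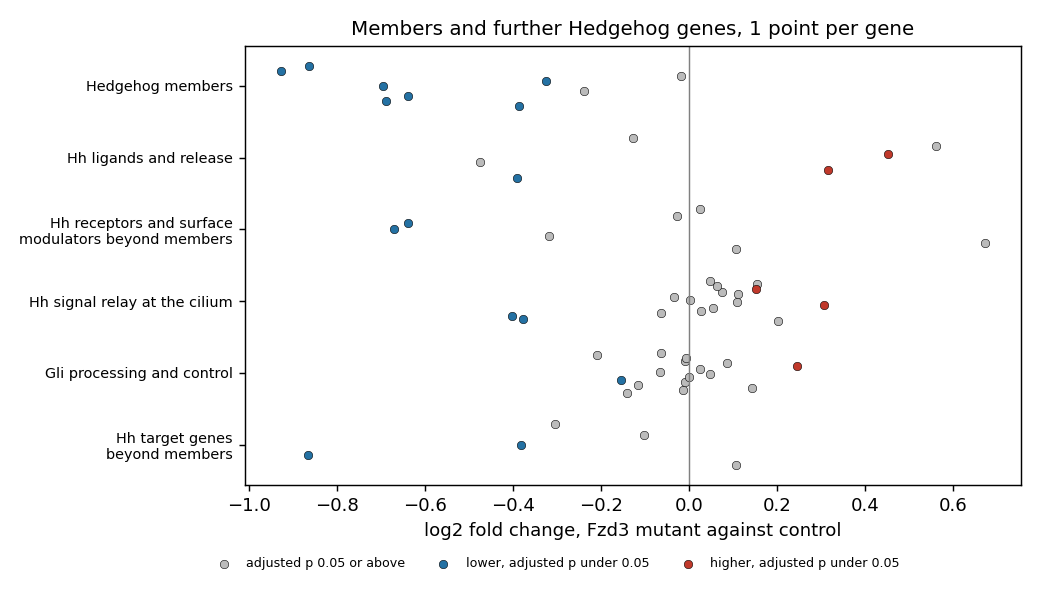
Log2 fold change in *Fzd3* mutants against controls (horizontal axis) for the 9 Hedgehog members and 5 lists of further Hedgehog genes, with 1 point per gene and colour for direction and limma adjusted p. Points of the members lie between -0.93 and -0.02, while those of the relay and Gli processing lists lie on both sides of 0.

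Calls among the further genes differed in how far they rested on single libraries. *Disp1*, *Disp2*, *Scube1*, *Gpc4*, *Gpc6*, *Arrb1*, *Prkacb* and *Ccnd1* passed against controls in 21 of 21 alternatives. Leaving out 1 library also added calls against controls, *Lrp2* without *Celsr3* mutant library 2 (adjusted p = 0.0451), *Gpr161* and *Numb* without *Celsr3* mutant library 4 (0.0302 and 0.0411), *Ift122* without control library 3 (0.0353) and *Bcl2* without control library 3 or *Fzd3* mutant library 3 (0.0128 and 0.0312). *Evc* was lost without control library 1 or 2 or *Fzd3* mutant library 1 or 2 (adjusted p 0.0587 to 0.11), and *Evc2* without control library 1, 2 or 3 or *Fzd3* mutant library 1 or 3 (0.0586 to 0.0946). *Kif3a* was lost without control library 2 or *Fzd3* mutant library 2 or 3 (0.0565 to 0.0723). *Cul1* was lost without control library 1, *Fzd3* mutant library 1 or 3 or *Celsr3* mutant library 2 (0.0511 to 0.127). It held in 11 of 21 alternatives, and was also lost with columns rescaled to the same total (0.0637), with quantile normalization (0.0783) and with the 2 groups alone (0.0572). Without the variance trend *Evc2* (0.0532), *Kif3a* (0.0545), *Cul1* (0.0834) and *Ccnd2* (0.0624) were lost, and without sharing of variances *Evc* (0.077), *Evc2* (0.101), *Cul1* (0.0815) and *Ccnd2* (0.113). *Ccnd2* was lost without control library 1 or 2 or *Fzd3* mutant library 1 or 2 (0.0573 to 0.1). Against *Celsr3* mutants 10 of 49 further genes were lower and 6 higher in *Fzd3* mutants. The shares over all genes were 29.6% past the threshold and 14.3% lower. *Ccnd1* (-0.68), *Gpc6* (-0.69) and *Gpc4* (-0.68) were lower than in *Celsr3* mutants in all 21 alternatives. *Mycn* (-0.18), *Numb* (-0.26), *Spop* (-0.16), *Kif7* (-0.24) and *Iqce* (0.23) passed in that comparison but not against controls. *Numb* narrowly missed the threshold against controls (adjusted p = 0.0524) and passed there in 5 of 21 alternatives, among them those for genes averaging 5 CPM or more (0.0476), with quantile normalization (0.0254), without the variance trend (0.036) and without sharing of variances (0.0432). Between the mutants, the calls of *Mycn*, *Numb*, *Spop*, *Kif7* and *Iqce* were lost without *Fzd3* mutant library 1 (adjusted p = 0.0633, 0.0645, 0.0856, 0.0996 and 0.165 in that order). *Numb* was also lost without *Celsr3* mutant library 4 (0.0887), *Spop* without *Celsr3* mutant library 1, 2 or 4 (0.0503 to 0.0621), and *Iqce* without control library 1, *Fzd3* mutant library 2 or *Celsr3* mutant library 1 or 4 (0.0603 to 0.15). *Kif7* was lost without any 1 library except *Celsr3* mutant library 4 (0.0583 to 0.176). In the same comparison *Disp1* was lost without *Fzd3* mutant library 1 or 2 or *Celsr3* mutant library 2 or 4 (0.052 to 0.0923), and *Scube1* without control library 1, any *Fzd3* mutant library or *Celsr3* mutant library 2 or 4 (0.0526 to 0.158). *Evc* was lost without *Fzd3* mutant library 1 or 2 or *Celsr3* mutant library 4 (0.0536 to 0.0995), and *Evc2* without *Celsr3* mutant library 1 or 4 (0.0514 and 0.0554). Between the mutants other settings also lost calls, *Scube1* with the 2 groups alone or without the variance trend or sharing of variances (0.06 to 0.143), *Iqce* without trend or sharing or with precision weights (0.05003 to 0.11), and *Kif7* with rescaled columns, the 2 groups alone or precision weights (0.0537 to 0.0769). *Spop* was lost without the trend (0.0566), and *Evc* and *Evc2* without sharing (0.0719 and 0.0645).

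Markers of progenitors moved with the Hedgehog genes, and in bulk tissue fewer cells of a type and less RNA per cell cannot be told apart. Of all genes, 29.8% passed the threshold in *Fzd3* mutants against controls and 14.8% were lower. Of 12 radial glia markers, 7 fell, 1 rose and 4 did not pass in *Fzd3* mutants. The most abundant was *Ptprz1*, which did not pass (-0.04), while *Pax6* fell by 0.70, *Nes* by 0.67, *Vim* by 0.62 and *Sox2* by 0.37. *Tnc* rose by 0.39, a call lost without control library 1 or *Fzd3* mutant library 1 (adjusted p = 0.0592 and 0.0544). *Hes1* (-0.56) was lost without control library 2 or *Fzd3* mutant library 1 (0.0539 and 0.0519), and *Emx2* (-0.31) without control library 2 or *Fzd3* mutant library 1 or 2 (0.0882 to 0.111). Their summed level was 2192, 2321 and 2247 CPM in controls, 1939, 1990 and 1925 CPM in *Fzd3* mutants and 2048, 2174 and 2146 CPM in *Celsr3* mutants.

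Markers of intermediate progenitors fell in 6 of 6 cases, among them *Eomes*, the most abundant, by 0.67 (SE 0.101, limma adjusted p = 0.000764) and *Neurog2* by 0.86 (SE 0.0903, adjusted p = 8.46e-05). The sum of the 6 was 412, 439 and 363 CPM in controls, 232, 253 and 288 CPM in *Fzd3* mutants and 400, 456 and 464 CPM in *Celsr3* mutants. Markers of cycling cells also fell in 6 of 6 cases, with *Mki67* by 0.81 (SE 0.0981, adjusted p = 0.0002) and *Top2a*, the most abundant, by 0.79 (SE 0.0987). Their sum was 798, 855 and 721 CPM in controls, 446, 472 and 520 CPM in *Fzd3* mutants and 717, 782 and 825 CPM in *Celsr3* mutants. The *Fzd3* mutants did not overlap with the other genotypes in any of these sums, nor in the sum of the 9 Hedgehog genes, which was 431, 481 and 414 CPM in controls, 281, 272 and 303 CPM in *Fzd3* mutants and 383, 441 and 445 CPM in *Celsr3* mutants. What part the cell types had in the Hedgehog result was not tested.

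Markers of other cell types did not share one direction, and their counts stand beside 29.8% of all genes past the threshold in *Fzd3* mutants, 14.8% lower. Of 9 markers of cortical excitatory neurons, 6 fell and 2 rose. *Mapt*, the most abundant, rose by 0.31. Their sum was 3909 to 4095 CPM in controls and 4129 to 4217 CPM in *Fzd3* mutants. *Neurod2* (-0.14) was lost without control library 1 or 2, *Fzd3* mutant library 1 or 3 or *Celsr3* mutant library 2 (adjusted p 0.0531 to 0.133), and *Slc17a7* (-0.35) without control library 2 (0.0527). Of 8 listed ventral telencephalon and interneuron markers 0 passed by limma, and *Nkx2-1* and *Gsx2* were not listed. The sum, led by *Dlx1*, was 237 to 270 CPM in controls and 220 to 284 CPM in *Fzd3* mutants, and *Lhx6* passed without *Fzd3* mutant library 3 (0.0268). Markers of oligodendrocyte precursors rose in 3 of 5 cases, with a sum of 29.4, 27.6 and 39.1 CPM in controls and 71.2, 62.6 and 38.1 CPM in *Fzd3* mutants, so that *Fzd3* mutant library 3 lay within the control range. *Pdgfra* was the most abundant of them, and of the 3 calls *Olig1* (1.08) held in all 21 alternatives. *Olig2* and *Pdgfra* were lost without control library 1 or 2 or *Fzd3* mutant library 1 or 2 (adjusted p 0.0869 to 0.122 and 0.0895 to 0.155), and *Cspg4* was gained without *Fzd3* mutant library 3 (0.0187). Endothelial markers rose in 3 of 6 cases, with *Flt1* by 0.85 and a sum, led by *Kdr*, of 94.7 to 98.7 CPM in controls and 125 to 143 CPM in *Fzd3* mutants, and *Tek* was gained without *Celsr3* mutant library 4 (0.0185). Microglial markers rose in 2 of 5 listed cases, and their sum, led by *Csf1r*, was 29.9 to 34.6 CPM in controls and 35.9 to 50.8 CPM in *Fzd3* mutants. *C1qa* (0.46) was lost without control library 1 or 2 or *Fzd3* mutant library 1 or 3 (0.0548 to 0.0942), *Aif1* was gained without control library 1 or *Celsr3* mutant library 1 (0.0421 and 0.045), *Cx3cr1* without *Fzd3* mutant library 3 (0.0128), and *Tmem119* was not listed. Of 7 listed mural and meningeal markers and of 6 red blood cell markers 0 passed by limma, with sums, led by *Rgs5* and *Hba-a1*, of 58.6 to 64 CPM and 1765 to 2039 CPM in controls and 67.4 to 82.8 CPM and 1570 to 2444 CPM in *Fzd3* mutants. The mural and meningeal count rested on *Celsr3* mutant library 4, since without it *Col1a1* (1.67, adjusted p = 0.0339) and *Dcn* (1.08, adjusted p = 0.000669) were higher in *Fzd3* mutants than in controls. *Pdgfrb* passed without *Fzd3* mutant library 3 (0.0144), and *Lum* and *Foxd1* were not listed. Both listed thalamus markers, *Tcf7l2* and *Lhx9*, fell at low levels, with a sum of 6.67 to 6.98 CPM in controls and 3.69 to 4.55 CPM in *Fzd3* mutants, and *Gbx2* was not listed. *Tcf7l2*, the more abundant, was lost without control library 1 or 2, *Fzd3* mutant library 1 or 2 or *Celsr3* mutant library 2 (0.0634 to 0.158), and *Lhx9* without control library 3 or *Fzd3* mutant library 2 or 3 (0.0606 to 0.0699). In *Celsr3* mutants 0 markers of these lists passed by limma against controls, with or without library 4. Marker calls in *Fzd3* mutants also depended on the variance model. Without sharing of variances *Hes1* (0.0584), *Tnc* (0.0833), *Emx2* (0.0781), *Neurod2* (0.0731), *Slc17a7* (0.0713), *Olig2* (0.125), *Pdgfra* (0.149), *Cldn5* (0.0526), *Tcf7l2* (0.12) and *Lhx9* (0.0601) were lost. Without the variance trend *Neurod2* (0.0861), *Olig2* (0.0632), *Pdgfra* (0.0814) and *Tcf7l2* (0.0629) were lost. *Neurod2* was also lost with rescaled columns (0.0503), quantile normalization (0.0594) and the 2 groups alone (0.0624), *Tcf7l2* with rescaled columns (0.0549) and precision weights (0.0612), and *C1qa* with quantile normalization (0.0847). With rescaled columns *Cspg4* was gained (0.0496), and with the 2 groups alone *Tek* (0.027), *Col1a1* (0.0297) and *Dcn* (0.00132). The part of these cell types in the Hedgehog result was not tested.

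**Figure D5:**
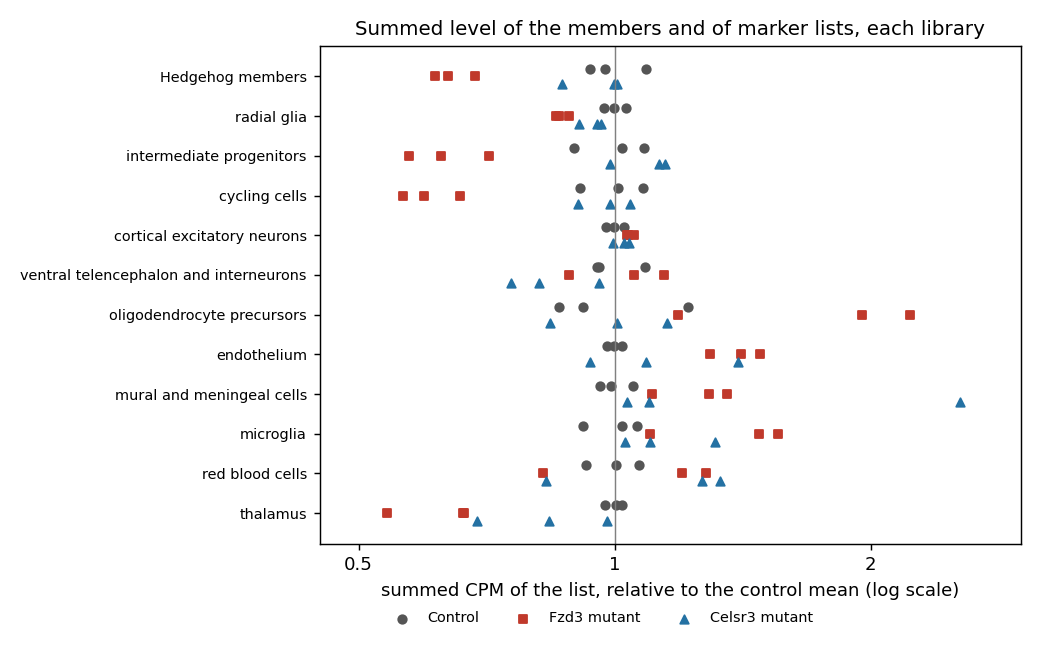
Summed CPM of the Hedgehog genes and of 11 marker lists in each library, divided by the control mean (horizontal axis, log scale), with genotype shown by colour and symbol. The *Fzd3* mutants lie left of all other libraries for the Hedgehog genes, radial glia, intermediate progenitors, cycling cells and thalamus. *Celsr3* mutant library 4 lies far right for mural and meningeal cells.

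The genes whose pattern over the 9 libraries was most like that of each member that fell were taken by Pearson correlation of log2 values, among genes at 1 CPM or more on average, as a description with no p. The 9 libraries share the genotype groups, which set much of these values. For *Smo* these were *Pax6* (r = 0.998), *H2afv* (0.997) and *Spag5* (0.997), and for *Gli3* *Mpdz* (0.997), *Cep192* (0.995) and *Sall1* (0.991). *Gli2* was closest to *Sipa1l2* (0.989), *Ccdc97* (0.988) and *Fen1* (0.987). The nearest to *Cdon* were *Prr11* (0.991), *Ston2* (0.989) and *Dlgap5* (0.988), and to *Gas1* *Dbi* (0.994), *Gm26648* (0.993) and *Dut* (0.99). *Boc* was nearest to *Gm20421* (0.989), *Litaf* (0.989) and *Ccnb2* (0.986), and *Sufu* to *Limk1* (0.987), *Dhx30* (0.981) and *Gm15886* (0.978).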

How the data were processed

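Cortices were microdissected from E16.5 embryos. The labels name Trizol for extraction, while the methods name an RNeasy kit. The CPM values for 14670 genes in 9 libraries were used as deposited. The submitters' processing notes name FastQC, TopHat, TopHat2, Bowtie, Cufflinks 2.1.1 and edgeR 2.12, and the builds GRCm38 and GRCh37, without stating the role of each. Columns left unused numbered 0.

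The genes were compared with limma 3.58.1 in R 4.3.3 on log2(CPM + 0.5), with a variance trend, for genes averaging 0.5 CPM or more, which removed 0 genes. Replicate numbers come from the labels. Depth was taken from the spacing of the values in a library. Exon lengths are from GENCODE M21 and promoters from RefSeq (GRCm38.p6). Tables and figures were made in Python 3.11.15 with pandas 2.3.3.

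The members, the lists of further Hedgehog genes and the marker lists were chosen with earlier results of these data known. Named are all members, listed Hedgehog genes past the threshold in at least 1 comparison, the ligands, *Hhip*, *Ccnd1* and *Mycn*, the 3 genes most correlated with each member that passed, and marker genes, the last picked from their lists after values were seen. Alternatives changed the pseudocount, filter, scaling, variance model or libraries. Precision weights, ratios and the GC box were chosen after values were seen.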

Additional observations from a re-analysis of the deposited data

How the results depend on the processing

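The number of members past the threshold was 7 for *Fzd3* mutants against controls in the alternatives tried other than leaving out a library, and 7 to 8 with each library left out in turn. For *Celsr3* mutants against controls it was 0 in all, and for *Fzd3* against *Celsr3* mutants 7, or 6 without sharing of variances (*Sufu*, adjusted p = 0.0772), and 6 to 7 with a library left out. Counts over all genes with a library left out ran from 2958 to 4312, from 39 to 53 and from 2971 to 4471 in the same order. Without sharing of variances *Celsr3* mutants gave 24 genes against 45, and the cause was not tested. The order of levels in controls was kept at 4 of 9 ranks per length of the longest transcript and at 5 of 9 with no length correction, and the cause is the length used. Scaling the columns in other ways moved the median of all genes by less than 0.1.

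With the replicate block, the counts of genes were 3629, 29 and 2101 and the members past the threshold 7, 0 and 6, with *Sufu* lost between the mutants (-0.27, adjusted p = 0.123). Between the mutants the block also lost 12 of the 16 further Hedgehog calls (adjusted p 0.0645 to 0.197), those of *Disp1*, *Scube1*, *Evc*, *Evc2*, *Iqce*, *Arrb1* (0.066), *Kif3a* (0.0759), *Kif7*, *Spop*, *Prkacb* (0.0915), *Numb* and *Mycn*. Against controls it lost *Cul1* (0.0786) and *Tcf7l2* (0.0572) in *Fzd3* mutants, gained *Tek* (0.0282), *Col1a1* (0.00586) and *Dcn* (0.00248) there, and lost the check of the label by *Celsr3* in *Celsr3* mutants (-0.71, adjusted p = 0.0699). The cause of these changes was not tested. Whether the numbers pair the samples is not stated in the sources used here. The mean correlation of deviations between control and *Fzd3* mutant libraries of the same number was -0.141 over 3 pairs. It was 0.03 and 0.056 for the other pairings of groups, over 2 pairs each. Single pairs of the same number ran from -0.199 to 0.192. So few pairs cannot settle whether libraries of the same number share a litter or a batch. Precision weights (voom) were an alternative chosen with the values known, and were taken from reads estimated with the smallest step as 1 read. The planned edgeR and DESeq2 tests on reads were not run. All values lay on the grid of steps (100% in each library). Too few low values were present to establish that the smallest step is 1 read, a limit that holds for the precision weights too. Changes of call were counted over all alternatives for the members, the listed further Hedgehog genes, the listed markers, *Fzd3* and *Celsr3*. In that count *Fzd3* mutants against controls kept the side of the threshold 2636 times, lost a call 86 times and gained one 31 times. For *Fzd3* against *Celsr3* mutants these numbers were 2586, 139 and 28, and for *Celsr3* mutants against controls 2751, 2 and 0.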
